A study of Danio rerio with 6 samples.

Results

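Cells measure oxygen through the hypoxia-inducible factors (HIF) and the enzymes that mark them for destruction. The genes described here were hif1aa, hif1ab, epas1a and epas1b, which encode HIF alpha subunits; egln1a, egln1b, egln2 and egln3, which encode prolyl hydroxylases; vhl, which encodes the protein that recognises a hydroxylated alpha subunit; and bnip3, a mitophagy receptor and HIF target. They were chosen by gene symbol with earlier results of these data known, so the share of them called is given as a description. The 10 symbols each matched 1 of the 24826 genes in the deposited table. All 10 passed the filter on low counts, with 23761 genes tested.

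RNA was measured in 6 pools of wild-type zebrafish larvae, each of 80 larvae. The 3 control pools came from medium with 0.001% bovine serum albumin, called the surfactant control, and the 3 leachate pools from medium with the leachate of tire wear particles named TWP 700. No albumin is recorded for the leachate pools, so an effect of the albumin and of the leachate cannot be told apart. In both groups the exposure ran from 4 to 168 hours after fertilization, with 200 eggs to a dish of 100 mL and a transfer of the larvae to fresh medium at 72 hours. The labels give the same dissolved oxygen setting for that medium in both groups and no reading per dish. The number 700 is a treadwear grade in the sample titles and is listed among concentrations in the design text, and it is used here only as a name. The labels call the pools biological replicates. Since whole larvae were pooled, fewer cells that express a gene and less RNA per cell cannot be told apart.

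In well-oxygenated cells the prolyl hydroxylases use oxygen to hydroxylate the alpha subunits, and the von Hippel-Lindau protein then directs these to the proteasome. When oxygen falls the alpha subunits persist, pair with a beta subunit of the ARNT family and switch on genes of glycolysis, iron uptake, vessel growth and mitochondrial turnover. Because this control acts mainly on the protein, the RNA of an alpha subunit can stay level while its activity changes, and RNA alone does not measure that activity. Zebrafish kept paralogue pairs, with a and b endings, of several of these genes. Among the hydroxylase genes egln3 is itself a HIF target in zebrafish and mammals.

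Library totals ran from 37030725 to 48431952 counts, at which 1 count is 0.0208 to 0.0272 CPM. Levels in CPM are a gene's counts as a rate per library, scaled by edgeR's TMM method. The first principal component, with 53.8% of the variance, separated the groups. On the second, with 20.8%, control pool 2 stood at -34.9 and leachate pool 1 at -16.2, with the other 4 between 5.12 and 25.0, so results that rest on these pools are also given without them.

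Of the 10 genes, egln3 rose and bnip3 fell in the leachate pools. The RNA of the 4 alpha subunit genes among the 10, the other 3 hydroxylase genes and vhl differed from control by less than the test could call. Their log2 fold changes lay between -0.30 and 0.34. The alpha subunit relative hif1al, which is not among the 10, rose and is given below with the partners. A gene was called where the adjusted p of edgeR's quasi-likelihood test was under 0.05 after adjustment over all 23761 genes tested. The 2 called members of 10, 1 in each direction, stand against 15.2% of all tested genes, with 7.87% called higher and 7.29% called lower, so the count of calls is close to that of the table as a whole. The median log2 fold change was -0.0053 over the members and -0.0026 over all genes tested.

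**Figure D1:**
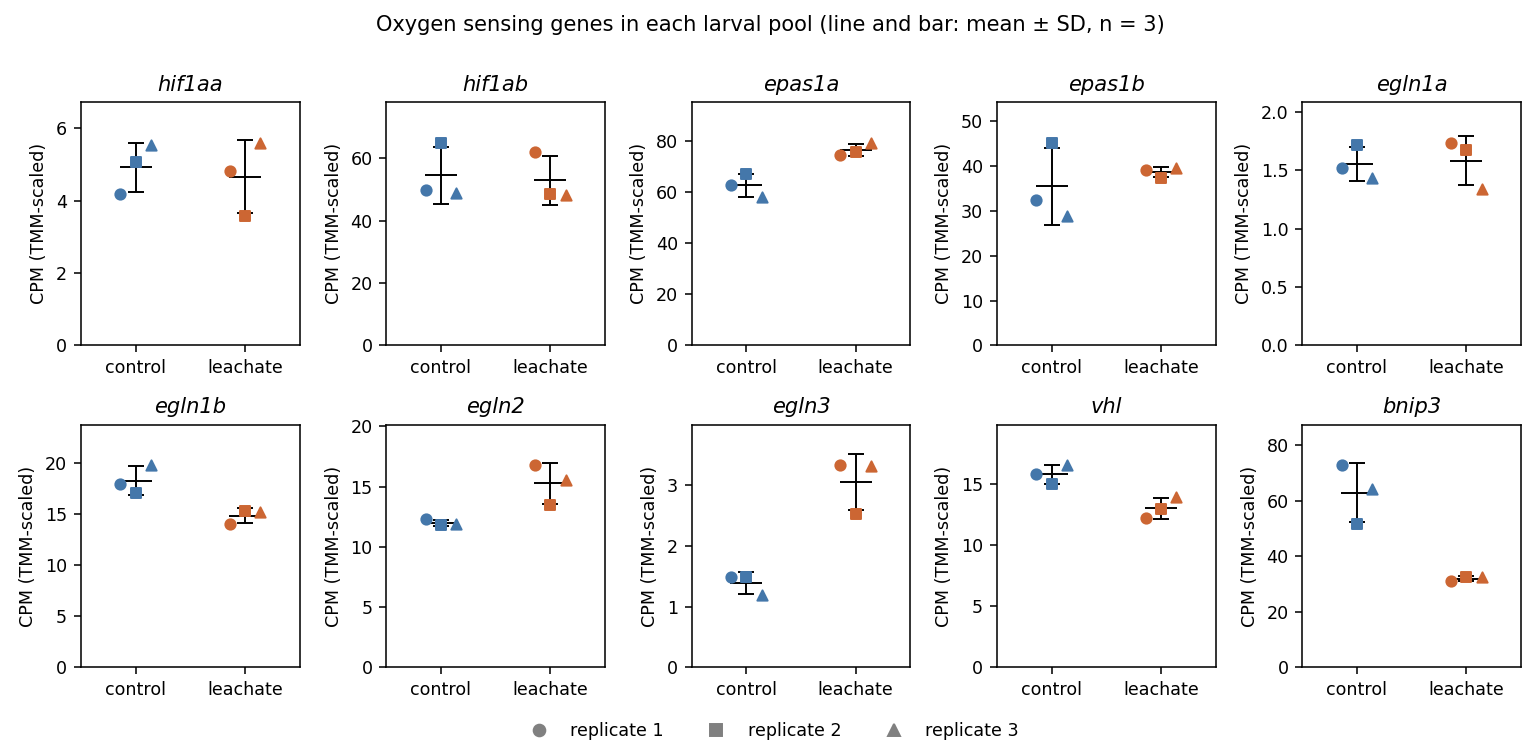
Level of each of the 10 genes in the 3 control and 3 leachate pools, in TMM-scaled CPM (vertical axis from 0), with each pool as a point and the mean ± SD as line and bar. The egln3 points of the leachate pools lie above 2.5 CPM and those of the controls at or under 1.50 CPM, and the bnip3 points of the leachate pools lie near 32 CPM, below every control.

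The egln3 gene, whose enzyme is a prolyl hydroxylase that HIF itself induces, had 1.50, 1.50 and 1.19 CPM in control pools 1 to 3 and 3.33, 2.52 and 3.31 CPM in leachate pools 1 to 3. The groups did not overlap, and leachate pool 2 was the lowest of its group. The mean rose from 1.39 ± 0.178 to 3.06 ± 0.462 CPM (SD, n = 3), a log2 fold change of 1.13 ± 0.23 (SE) with a 95% interval of 0.63 to 1.63 and an adjusted p of 0.00700. These are few reads: the counts were 72, 55 and 49 in the controls and 148, 110 and 126 in the leachate pools, and counting error alone is 14.3% of the lowest of these. The call held in 14 of 14 alternative fits, with log2 fold changes of 0.96 to 1.26 and an adjusted p of at most 0.0349. The lowest, 0.96, was in the fit to log2(TPM + 0.5), where the added 0.5 shrinks the changes of rare genes. Without control pool 2 and leachate pool 1 together the log2 fold change of egln3 was 1.11, with an adjusted p of 0.00694.

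The bnip3 gene, whose product sits in the outer mitochondrial membrane and recruits the autophagy machinery, had 72.8, 51.6 and 64.1 CPM in control pools 1 to 3 and 31.1, 32.5 and 32.4 CPM in leachate pools 1 to 3. Every leachate pool was below every control, and the controls were the more spread, with a coefficient of variation of 17.0% against 2.4%. The mean fell from 62.8 ± 10.7 to 32.0 ± 0.769 CPM (SD, n = 3), a log2 fold change of -0.97 ± 0.13 (SE) with a 95% interval of -1.26 to -0.69 and an adjusted p of 0.000761. The lowest control was pool 2. Without it the log2 fold change of bnip3 was -1.10 with an adjusted p of 2.66e-05, and without leachate pool 1 as well it was -1.07 with an adjusted p of 4.42e-07. The call held in 14 of 14 alternatives, with an adjusted p of at most 0.00732. Ranked by adjusted p over the 23761 genes, with ties given their lowest rank, bnip3 was number 346 and egln3 number 1273.

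The related mitophagy receptor genes bnip3la and bnip3lb are zebrafish counterparts of mammalian BNIP3L and were named after their values were seen. They had log2 fold changes of -0.02 ± 0.13 and -0.21 ± 0.12 (SE), with adjusted p of 0.930 and 0.252. In CPM, bnip3la ranged from 21.0 to 28.2 in the controls and from 22.4 to 26.3 in the leachate pools, so the groups overlapped. For bnip3lb the leachate pools, at 76.9 to 79.3 CPM, lay just below the controls, at 80.2 to 98.5 CPM. The difference between bnip3 and these genes was not tested.

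Of the genes for the alpha subunits, epas1a, which encodes a HIF-2 alpha, had 62.9, 67.3 and 58.1 CPM in control pools 1 to 3 and 74.5, 76.0 and 79.4 CPM in leachate pools 1 to 3. Every leachate pool was above every control. The log2 fold change of 0.29 ± 0.11 (SE), with an interval of 0.05 to 0.53, was not called at an adjusted p of 0.0974. Without control pool 2 it was called, at a log2 fold change of 0.34 and an adjusted p of 0.0472, and without leachate pool 1 as well at 0.36 and 0.0097.

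Its paralogue epas1b, the other HIF-2 alpha gene, had 32.4, 45.2 and 28.9 CPM in the controls and 39.2, 37.4 and 39.5 CPM in the leachate pools. Control pool 2 was the highest of the 6 and the other controls the lowest, so the groups overlapped. The log2 fold change was 0.13 ± 0.15 (SE), with an interval of -0.21 to 0.46 and an adjusted p of 0.633. It became 0.34 with an adjusted p of 0.0476 without control pool 2, 0.33 with an adjusted p of 0.0261 without leachate pool 1 as well, and -0.0049 without control pool 3.

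The HIF-1 alpha genes did not separate the groups. The level of hif1ab was 49.8, 64.9 and 48.7 CPM in the controls and 62.1, 48.5 and 48.2 CPM in the leachate pools. The high pools were control 2 and leachate 1, and the remaining 4 lay within 2 CPM of each other. Its log2 fold change was -0.04 ± 0.15 (SE), with an interval of -0.36 to 0.28 and an adjusted p of 0.886. For hif1aa, 4.19, 5.06 and 5.53 CPM in the controls stood beside 4.82, 3.58 and 5.60 CPM in the leachate pools, with both the lowest and the highest value among the latter. Its log2 fold change was -0.08 ± 0.20 (SE), with an interval of -0.52 to 0.36 and an adjusted p of 0.835. These intervals leave room for a change in either direction, and the sign of both genes' fold changes turned in some alternatives.

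Control pool 2 and leachate pool 1, which were high in hif1ab, also held relatively more reads of long genes. In the 10% longest genes the median log2 deviation from a gene's mean over all 6 pools was 0.184 in control pool 2. It was 0.0959 in leachate pool 1, against -0.117 to -0.0345 in the other 4. Among the tested genes egln2 is at percentile 90.6 of length, hif1ab at 82.9, epas1a at 79.9 and epas1b at 71.1. In control pool 2 hif1ab lay 0.263 and epas1b 0.370 above the group mean on the log2 scale, and in leachate pool 1 these deviations were 0.238 and 0.0187. Of the other long members, egln2 deviated by -0.0203 and 0.139 and epas1a by 0.102 and -0.0392 in these pools. Of these pools, egln2 was above its group mean only in leachate pool 1 and epas1a only in control pool 2. The part of gene length in these deviations was not tested. With the length trend removed from each library, the log2 fold change was -0.05 ± 0.12 (SE) for hif1ab and 0.13 ± 0.14 (SE) for epas1b, with adjusted p of 0.833 and 0.588. In that fit 2 of the 10 members were called, against 18.5% of all genes tested.

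The hydroxylase genes other than egln3 went different ways by small amounts. The level of egln2 was 12.3, 11.8 and 11.9 CPM in the controls and 16.8, 13.5 and 15.5 CPM in the leachate pools. The groups did not overlap. The log2 fold change of 0.34 ± 0.12 (SE), with an interval of 0.07 to 0.62, was not called at an adjusted p of 0.0833. When scaled by library totals instead it was 0.48 and was called, with an adjusted p of 0.0479.

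The egln1b gene is the more abundant of the zebrafish counterparts of mammalian EGLN1. Its level was 17.9, 17.0 and 19.8 CPM in the controls and 14.0, 15.2 and 15.2 CPM in the leachate pools. All leachate pools were below all controls. Its log2 fold change was -0.30 ± 0.11 (SE), with an interval of -0.55 to -0.05 and an adjusted p of 0.104, and was not called. Its paralogue egln1a was rare, with counts of 51 to 77 and levels of 1.52, 1.72 and 1.43 CPM in the controls and 1.73, 1.67 and 1.34 CPM in the leachate pools. The egln1a groups overlapped, at a log2 fold change of 0.03 ± 0.24 (SE), an interval of -0.49 to 0.55 and an adjusted p of 0.949.

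The vhl gene had 15.8, 14.9 and 16.5 CPM in the controls and 12.2, 13.0 and 13.9 CPM in the leachate pools. Every leachate pool was below every control on this scale. The log2 fold change of -0.28 ± 0.12 (SE), with an interval of -0.53 to -0.02, was not called at an adjusted p of 0.133. In the deposited TPM (which divide by gene length and use another scaling) the ranges of both vhl and egln1b overlapped between the groups, at 14.9 to 17.2 against 13.8 to 15.6 TPM for vhl and 10.4 to 11.4 against 9.55 to 10.6 TPM for egln1b.

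In all, 6 of the 10 genes had CPM ranges that did not overlap between the groups, 3 higher and 3 lower in the leachate pools, against 35.1% of all genes tested. Of these 6, epas1a, egln1b, egln2 and vhl did not pass the test. Over the 8 genes not called, the 95% intervals of the log2 fold change together ran from -0.55 to 0.62, which is the size of change these pools leave possible.

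**Figure D2:**
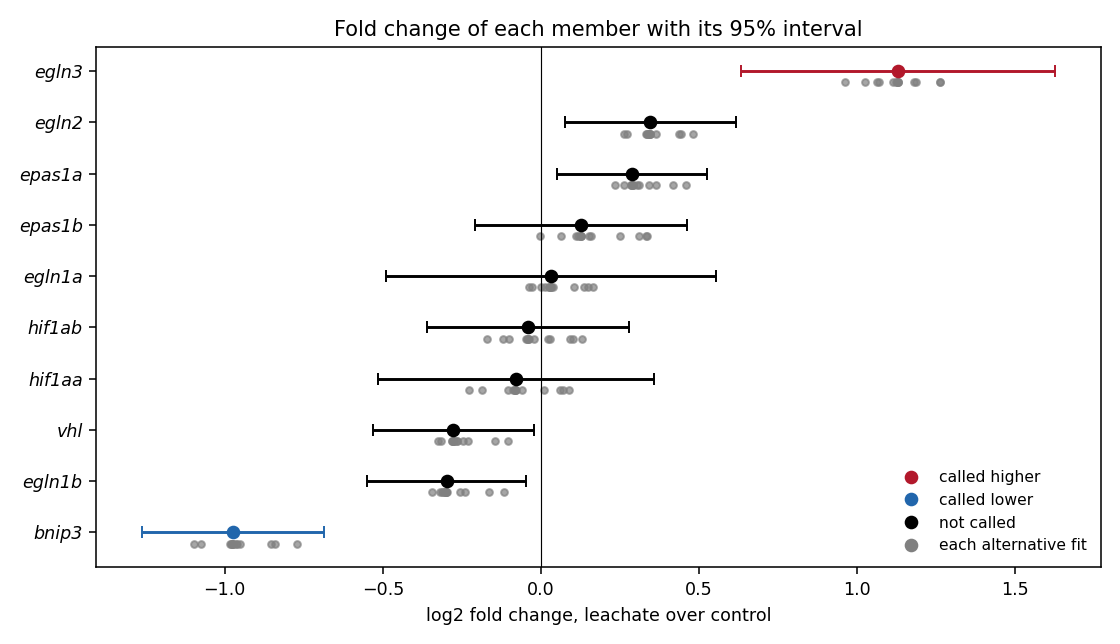
Log2 fold change of each gene, leachate over control (horizontal axis), with its 95% interval from edgeR and, as small grey points below it, the value in each of 14 alternative fits. The egln3 points lie between 0.96 and 1.26 and the bnip3 points between -1.10 and -0.77, while the points of hif1aa, hif1ab, epas1b and egln1a fall on both sides of 0.

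The genes were compared with each other only per length, in the deposited TPM. In the controls bnip3 was highest, at 40.3 ± 8.58 TPM (SD, n = 3) and percentile 94.0 of the table, followed by epas1a at 18.6 ± 2.89, vhl at 15.9 ± 1.18, hif1ab at 15.0 ± 3.25, epas1b at 13.0 ± 3.79 and egln1b at 10.8 ± 0.569 TPM. The lower group was hif1aa at 2.62 ± 0.194, egln2 at 2.59 ± 0.285, egln1a at 1.13 ± 0.178 and egln3 at 0.911 ± 0.199 TPM, the last at percentile 21.0. Only the steps from bnip3 to epas1a, from egln1b to hif1aa and from egln2 to egln1a separated the ranges of neighbours in that order.

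In the leachate pools bnip3, at 23.2 ± 2.16 TPM, and epas1a, at 25.6 ± 2.37 TPM (SD, n = 3), had overlapping ranges at the head of the order. They were followed by hif1ab at 16.6 ± 4.39, epas1b at 15.8 ± 1.96, vhl at 14.8 ± 0.903 and egln1b at 9.90 ± 0.567 TPM. Of the rarer genes, egln2 stood at 3.73 ± 0.782, hif1aa at 2.82 ± 0.695, egln3 at 2.26 ± 0.520 and egln1a at 1.31 ± 0.276 TPM. Neighbours whose ranges did not overlap were bnip3 and hif1ab, vhl and egln1b, egln1b and egln2, and egln3 and egln1a. In the controls egln3 and egln1a overlapped.

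Among the hydroxylase genes egln1b was the most abundant in every pool, and egln3 held a larger share in each leachate pool than in any control. As shares of the summed TPM of the 4 hydroxylase genes, egln3 held 6.38, 6.49 and 4.75% in control pools 1 to 3 and 14.2, 11.1 and 13.9% in leachate pools 1 to 3. The share of egln1b was 70.0 ± 2.52% in the controls and 57.8 ± 3.50% in the leachate pools, and that of egln2 16.8 ± 0.762% and 21.5 ± 1.99% (SD, n = 3). For these 3 genes the groups did not overlap, whereas the egln1a shares, 7.34% and 7.62% on average, did. With 3 pools against 3 an exact permutation test of a share cannot go below p = 0.1, so no test of these shares was made. Shares of a sum are bound to each other: the egln1b level itself was not called, and its TPM ranges overlapped.

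Among hif1aa, hif1ab, epas1a and epas1b, the make-up of the alpha subunit RNA was alike within the spread of the pools. The sum leaves out hif1al, a relative with Hif-3alpha as a synonym, which rose and is given below with the partners. The epas1a gene held 35.1 to 40.1% of the summed TPM of the 4 genes in the controls and 39.7 to 43.8% in the leachate pools, so its ranges touched. On average hif1ab held 30.5% and 26.9%, epas1b 26.0% and 26.1%, and hif1aa 5.45% and 4.62% in control and leachate pools, all with overlapping ranges. The ratio of the summed TPM of these 4 genes to summed hydroxylase TPM was 3.01, 3.83 and 2.73 in the controls. In the leachate pools the ratio was 3.65, 3.45 and 3.48. The leachate values lay inside the range of the controls.

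**Figure D3:**
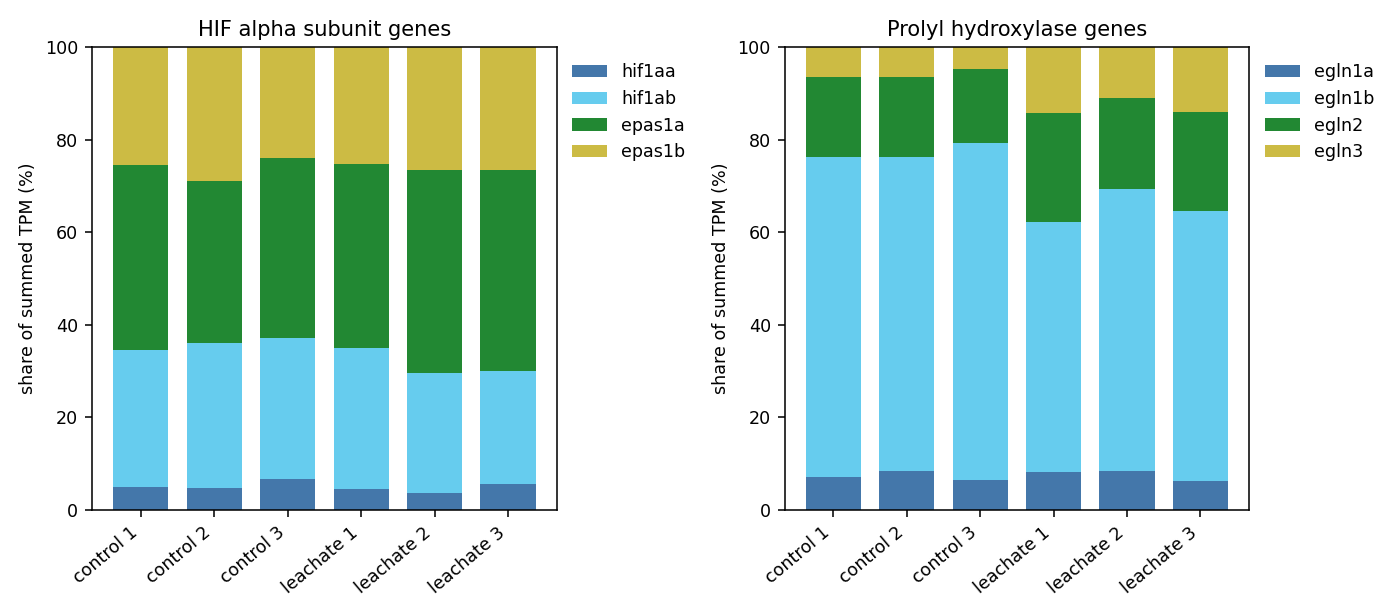
Share of the summed deposited TPM (vertical axis, %) held by each of the 4 alpha subunit genes (left) and each of the 4 hydroxylase genes (right), with 1 bar per pool. The egln3 band covers 4.75 to 6.49% of a control bar and 11.1 to 14.2% of a leachate bar, whereas the bands of the alpha subunit genes overlap between groups.

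Whether the copies of a gene moved alike was asked with the log2 ratio of the a copy to the b copy in each pool. The difference in this ratio, leachate minus control, was -0.05 for hif1aa over hif1ab, 0.14 for epas1a over epas1b and 0.32 for egln1a over egln1b. In exact two-sided permutation tests of 3 pools against 3 the p were 0.7, 0.6 and 0.2, or 0.7, 0.7 and 0.6 adjusted over the 3 pairs, where the smallest possible p is 0.1. None of these tests called a difference, and their floor is above 0.05. Per length, in TPM, hif1ab exceeded hif1aa by 4.52 to 6.58 times in the controls and by 4.43 to 6.96 times in the leachate pools.

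Around these genes, 138 other genes of the pathway were tested, in 6 lists: partners, degradation machinery, glucose targets, other targets, mitophagy and tissue globins. Of the 138, 21 rose and 18 fell, which is 28.3% called against 15.2% of all genes, with a median log2 fold change of -0.04. With library totals 28 rose and 7 fell, and in TPM 26 rose and 7 fell, so the split depends on the scaling. These lists were drawn up with earlier results of these data known, and the shares are given as a description. The number called depended on single pools, at 20 without control pool 1, 23 without leachate pool 2 and 22 without leachate pool 3. In these fits 7.85%, 8.48% and 8.56% of all genes tested were called.

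In the list of partners and coactivators of HIF, which also holds hif1al and the like-named hif1al2, 1 of 15 genes rose and 2 fell. That is 6.67% called higher against 7.87% of all genes and 13.3% called lower against 7.29%. The median log2 fold change of the list was -0.13. This median was 0.01 with library totals and 0.05 in TPM, where that of all genes tested was 0.131 and 0.134. Relative to the median of all genes tested it was -0.12 with TMM, -0.12 with library totals and -0.09 in TPM. The gene that rose was hif1al, a relative of the alpha subunits with Hif-3alpha as a synonym in the RefSeq gene table. It had 93.8, 80.9 and 145 CPM in the controls and 321, 252 and 279 CPM in the leachate pools, all leachate pools being above all controls. Its log2 fold change was 1.41 ± 0.21 (SE) with an adjusted p of 0.00162, and the call held in 14 of 14 alternatives. The hif1al2 gene was not called, at a log2 fold change of -0.08 ± 0.15 (SE) and an adjusted p of 0.770.

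The partner genes that fell were cited4b, whose mammalian relative binds the coactivators CBP and p300, and arnt2, a beta subunit with which alpha subunits pair. The level of cited4b went from 35.9 ± 2.4 to 24.1 ± 1.98 CPM, a log2 fold change of -0.58 ± 0.11 (SE) with an adjusted p of 0.00551. That of arnt2 went from 36.3 ± 0.258 to 26.8 ± 1.29 CPM, a log2 fold change of -0.44 ± 0.10 (SE) with an adjusted p of 0.0132. Neither gene was called with library totals, at adjusted p of 0.055 and 0.11, or in TPM, at 0.122 and 0.556. The arnt2 call was also lost without control pool 1, at 0.0586, and without leachate pool 2, at 0.0571.

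The hydroxylation and degradation machinery list includes the asparagine hydroxylase gene hif1an, the cullin gene cul2 and the SIAH ligases. Of its 16 genes 1 fell and 15 were not called. That is 6.25% called lower against 7.29% of all genes and 0% called higher against 7.87%. The median log2 fold change was -0.09, which was 0.05 with library totals and 0.07 in TPM. Relative to the median of all genes tested it was -0.08 with TMM, -0.08 with library totals and -0.06 in TPM. The gene that fell was vhll, a gene with a von Hippel-Lindau-like name, from 2.21 ± 0.192 to 1.28 ± 0.195 CPM (log2 fold change -0.79 ± 0.23, SE, adjusted p 0.0433). That call was lost in 10 of 14 alternatives, with each single pool left out among them, at adjusted p of up to 0.135. The hif1an gene was not called, at a log2 fold change of -0.40 ± 0.14 (SE) and an adjusted p of 0.0798.

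The glucose list leaned upward: of 37 HIF target genes for glucose uptake and glycolysis, 8 rose, 1 fell and 28 were not called. That is 21.6% called higher against 7.87% of all genes and 2.70% called lower against 7.29%, with a median log2 fold change of 0.26. The genes that rose with the largest changes were slc2a1a, a glucose transporter, and pkma, a pyruvate kinase. The slc2a1a level went from 26.0 ± 3.20 to 43.0 ± 6.50 CPM (log2 fold change 0.72 ± 0.14, SE, adjusted p 0.00559) and that of pkma from 104 ± 2.1 to 160 ± 15.8 CPM (0.62 ± 0.12, adjusted p 0.00597), both called in 14 of 14 alternatives.

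Glycolysis genes that rose by less included ldha, which makes lactate, at 0.51 ± 0.14 (log2, SE, adjusted p 0.0321), a call that was lost with each single pool left out other than control 3, at adjusted p of 0.0501 to 0.110. The gene that fell was pdk1, a kinase that holds pyruvate dehydrogenase inactive, from 51.2 ± 6.59 to 34.8 ± 1.32 CPM (log2 fold change -0.56 ± 0.12, SE, adjusted p 0.00921). Its call was lost in 4 of 14 alternatives: library totals at an adjusted p of 0.0716, TPM at 0.301, without control pool 1 at 0.054 and without leachate pool 2 at 0.0571. The number of glucose genes that rose was 3 without control pool 1, 3 without leachate pool 1, 3 without leachate pool 3 and 5 without leachate pool 2, and 13 without control pool 2 and leachate pool 1 together. It was also 13 with library totals and in TPM, and with both of these no gene fell. Over all genes tested the number called higher was 1871 with TMM, 2809 with library totals and 2636 in TPM. For all genes it was 970 without control pool 1, 1360 without leachate pool 1, 1123 without leachate pool 3 and 1128 without leachate pool 2. Without control pool 2 and leachate pool 1 together it was 2648. Relative to the median of all genes tested, the list median was 0.265 with TMM, 0.263 with library totals and 0.278 in TPM.

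The other HIF targets split, with 9 of 46 genes higher, 6 lower and 31 not called. Of these targets 19.6% were called higher, against 7.87% of all genes, and 13.0% lower, against 7.29%. Their median log2 fold change was -0.04, which was 0.09 with library totals and 0.10 in TPM. Relative to the median of all genes tested it was -0.04 with TMM, -0.04 with library totals and -0.03 in TPM. The largest rises were in the transferrin receptor genes, which take up iron: tfr1a had 18.7, 20.0 and 19.1 CPM in the controls and 66.3, 55.6 and 52.6 CPM in the leachate pools. Its groups were far apart, at a log2 fold change of 1.60 ± 0.12 (SE) and an adjusted p of 2.09e-05. The tfr1b level went from 21.5 ± 1.38 to 51.8 ± 3.52 CPM, a log2 fold change of 1.27 ± 0.11 (SE) with an adjusted p of 4.73e-05. Of the other genes of the list, tfa, which encodes transferrin and is also a hepatocyte marker, the lysyl oxidase genes loxl2a and loxl2b, and ca9, a carbonic anhydrase, rose by 0.90, 1.19, 0.91 and 0.74 on the log2 scale, with adjusted p of 0.00288, 0.000703, 0.000536 and 0.0298. The ca9 call was lost without control pool 3, at 0.0524, without leachate pool 2, at 0.101, and without leachate pool 3, at 0.0822. The heme oxygenase gene hmox1a, which releases iron from heme, fell by 1.03 on the log2 scale with an adjusted p of 0.000259. Also called by edgeR in this list were bhlhe41 and stc2a, at log2 fold changes of 1.04 and 0.55, with adjusted p of 0.00204 and 0.0207. Called lower were ndrg1a, ak4 and kdm4c, at -0.62, -0.48 and -0.46, with adjusted p of 0.0115, 0.0160 and 0.0154. Most of the calls of hmox1a, ndrg1a, ak4 and kdm4c were lost without control pool 1 and without leachate pool 3. In each of these fits 3 genes of the list were called lower, with ndrg1b and igfbp1b among them. Of the collagen hydroxylase genes plod2 rose, at 0.48 with an adjusted p of 0.0262, while p4ha1a, p4ha1b, p4ha2 and plod1a were not called, at log2 fold changes of -0.21, 0.34, 0.11 and 0.40.

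The largest falls among the other targets were in ndrg1b, a hypoxia- and stress-responsive gene, and igfbp1b, a binding protein of insulin-like growth factors. The ndrg1b level was 126, 109 and 126 CPM in the controls and 38.5, 44.6 and 42.0 CPM in the leachate pools. Without overlap, its log2 fold change was -1.53 ± 0.12 (SE) with an adjusted p of 2.78e-05. The igfbp1b level was 187, 135 and 185 CPM in the controls and 61.2, 66.1 and 66.2 CPM in the leachate pools. Its groups did not overlap either, at a log2 fold change of -1.39 ± 0.14 (SE) and an adjusted p of 0.000157. The calls of tfr1a, tfr1b, ndrg1b and igfbp1b held in 14 of 14 alternatives.

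Beside called targets such as ca9, other well-known HIF targets were not called. The vascular growth factor genes vegfaa and vegfab had log2 fold changes of -0.14 ± 0.14 and 0.34 ± 0.14 (SE), with adjusted p of 0.555 and 0.115. The erythropoietin gene epoa, whose hormone drives red cell production, lay between 0.0817 and 0.550 CPM over the 6 pools, too low to compare. The stress gene ddit4 had 146, 63.2 and 214 CPM in the controls and 83.2, 107 and 107 CPM in the leachate pools, with control pool 2 the lowest of all. These genes were named after their values were seen. The number of other targets that fell was 3 without control pool 1, 3 without leachate pool 3 and 10 without control pool 2. Over all genes tested, 908, 928 and 1996 fell in these fits, against 1731 with all pools. Without leachate pool 2, 6 other targets rose, where 1128 of all genes tested did, against 1871 with all pools. With library totals 10 other targets rose and 4 fell, and in TPM 9 rose and 4 fell.

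In the mitophagy list, which holds the outer membrane receptors, the PINK1 and parkin genes and the adaptors that link them to autophagosomes, 3 of 22 genes rose and 8 fell. That is 36.4% called lower against 7.29% of all genes and 13.6% called higher against 7.87%. The median log2 fold change was -0.24. The largest falls were in calcoco2, an autophagy adaptor, from 35.1 ± 0.953 to 15.3 ± 0.310 CPM (log2 fold change -1.20 ± 0.10, SE, adjusted p 4.5e-05), and park2, the parkin ligase gene, from 10.7 ± 0.137 to 5.16 ± 0.808 CPM (-1.05 ± 0.15, adjusted p 0.00102). The kinase gene pink1 fell by 0.51 on the log2 scale, with an adjusted p of 0.0134. The genes gabarapb, map1lc3a, tax1bp1b, gabarapl2 and ulk1b of general autophagy also fell, with adjusted p of 0.00739 to 0.0154. With library totals the calls of pink1, map1lc3a, tax1bp1b, gabarapl2 and ulk1b were lost, at adjusted p of 0.0949, 0.0537, 0.0928, 0.110 and 0.127, and all 5 were also lost in TPM, without control pool 1 and without leachate pool 3.

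The mitophagy genes that rose most were phb2b, a prohibitin of the inner membrane, from 16.3 ± 1.19 to 29.5 ± 1.15 CPM (log2 fold change 0.85 ± 0.11, SE, adjusted p 0.000537), and bcl2l13, an outer membrane receptor, from 18.3 ± 1.40 to 30.0 ± 2.68 CPM (0.71 ± 0.12, adjusted p 0.00236). These and the calls of calcoco2 and park2 held in 14 of 14 alternatives. The number that fell was 3 without control pool 1, 3 without leachate pool 3, 4 without leachate pool 2 and 12 without control pool 2 and leachate pool 1 together. It was 3 with library totals and 3 in TPM. Over all genes tested the number called lower was 1731 with TMM, 868 with library totals and 661 in TPM. For all genes it was 908 without control pool 1, 928 without leachate pool 3 and 896 without leachate pool 2. Without control pool 2 and leachate pool 1 together it was 2606. Relative to the median of all genes tested, the list median was -0.235 with TMM, -0.235 with library totals and -0.196 in TPM.

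Of the 5 tissue globin genes, none was called by edgeR, while 1 of 5 was called higher by DESeq2. The most abundant, the myoglobin gene mb, had 113, 31.8 and 110 CPM in the controls and 82.7, 86.9 and 90.4 CPM in the leachate pools, with control pool 2 far below the rest. Its log2 fold change was 0.03 ± 0.49 (SE) with an adjusted p of 0.981. Without control pool 2 mb was called lower, at a log2 fold change of -0.37 and an adjusted p of 0.0350, and without leachate pool 1 as well at -0.33 and 0.0167. The gene that DESeq2 called, and the only 1 of the 5 with an unadjusted p under 0.05 in edgeR, was cygb1, a cytoglobin, at a log2 fold change of 0.33 ± 0.11 (SE) and an adjusted p of 0.0628.

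**Figure D4:**
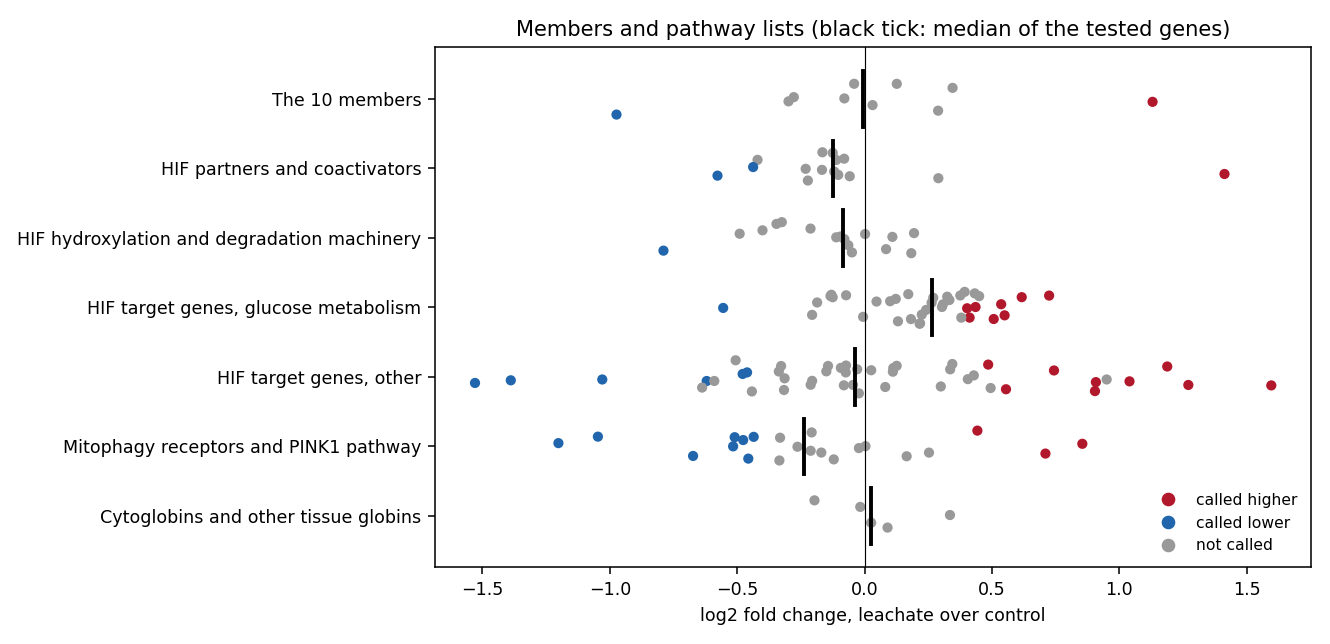
Log2 fold change, leachate over control (horizontal axis), of the 10 oxygen sensing genes and of each tested gene of 6 pathway lists, coloured by the edgeR call, with a black tick at the median. The glucose list has its median at 0.26 and the mitophagy list at -0.24, and most points of every list are grey, that is not called, except in the mitophagy list, where 11 of 22 are.

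Markers of 8 cell types were read beside these results, 48 of 49 being in the table. The table holds only genes with at least 1 count in every pool, so no marker in it is at 0. The summed CPM of 6 lens markers was 2724 to 3729 in the controls and 1441 to 2128 in the leachate pools, with 5 of 6 called lower. Ionocyte and gill markers summed to 232 to 246 against 315 to 331 CPM with 2 of 6 called higher. Sympathoadrenal and neuroepithelial markers summed to 25.2 to 28.9 against 32.9 to 37.1 CPM with 2 of 6 called higher. Neuron markers summed to 566 to 614 against 637 to 687 CPM with 3 of 6 called higher. The median log2 fold changes of these lists were 0.01, 0.01 and 0.44. Of the ionocyte and gill markers ca2 and trpv6 were called and atp6v1aa was at 0.15. The others, slc12a10.2, foxi3a and foxi3b, were at -0.12, -0.40 and -0.20, not called. Of the sympathoadrenal and neuroepithelial markers ddc and phox2bb were called and th was at 0.21. The others, dbh, tph1a and slc18a2, were at -0.21, -0.44 and -0.18, not called. Endothelial markers summed to 132 to 146 against 119 to 129 CPM with 0 of 6 called by edgeR or DESeq2 and 1 of 6 at an unadjusted p under 0.05. For erythrocyte, skeletal muscle and hepatocyte markers the sums overlapped, at 591 to 734 against 657 to 712, 45281 to 54580 against 37145 to 46072, and 3525 to 4164 against 3767 to 4991 CPM, with 2, 0 and 1 of 6 called higher and none lower by edgeR. DESeq2 called 1 hepatocyte marker lower, and none of the 6 muscle markers had an unadjusted p under 0.05. The neuron marker calls were 0 of 6 in edgeR without control pool 1, without control pool 3, without leachate pool 1 and without leachate pool 3, and the lens marker calls 2 of 6 without leachate pool 3. The sympathoadrenal and neuroepithelial calls were 1 of 6 with any single pool left out, and the erythrocyte calls 1 of 6 without control pool 1, control pool 3 or leachate pool 1. The part of these cell types in the changes of egln3, bnip3 and the lists was not tested.

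Without control pool 2, or without control pool 2 and leachate pool 1 together, 4 of the 10 members were called, namely egln3, bnip3, epas1a and epas1b. Calls over all genes tested also rose in these fits, from 3602 with all pools to 4059 and 5254, so the rise was not particular to the members. The median over all genes tested shifted from -0.0026 to 0.131 with library totals and 0.134 in TPM, and the share of called genes that were higher from 51.9% to 76.4% and 80.0%. Relative to that median, egln3 was higher by 1.13 with library totals and 0.83 in TPM, and bnip3 stood at -0.97 and -0.90, on the log2 scale.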

How the data were processed

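RNA was measured in 3 control and 3 leachate pools of zebrafish larvae, grouped by their titles. Per the labels' protocols, ribosomal RNA was depleted and a stranded total RNA kit was used on RNA with an integrity number over 7.0. The submitters' processing notes name HISAT2, StringTie 2.1.3b, DESeq2 and GRCz11 without their roles. The rule for summing reads over a gene, and any use of strand, are not stated in the labels or headers; near-identical copies and overlapping genes are therefore uncertain. The authors gave a whole-number read count, TPM and FPKM per gene and sample, per the file headers; the deposited FPKM served only to derive relative gene length.

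edgeR 4.0.16 under R 4.3.3 was run on the deposited counts (TMM, expression filter by group, robust quasi-likelihood F test, Benjamini-Hochberg over 23761 genes). Each SE is the absolute log2 fold change over the square root of F, and intervals use the t quantile of the fit. No 2 pools were 1 library deposited again, since chi-square over degrees of freedom within a group was at least 8.37. Alternatives were DESeq2's size factors, library totals, no filter, DESeq2 1.42.0, limma 3.58.1 on log2(TPM + 0.5) and a replicate block. Others left out each pool, or control 2 and leachate 1 together. That pair was picked for its place on the second principal component of these data. Removal of a gene length trend was also chosen after seeing the data. The procedure was tested on simulated data.

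The members and gene lists were chosen with earlier results of these data known. Of 204 list symbols, 184 were in the table. Named from each list were the 2 called genes per direction with the largest change, or its most abundant gene where none was called; genes outside this rule were picked once their values were known. The most similar patterns over the pools were sought for egln3 and epas1a. Sequences and coordinates were not used here.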

Additional observations from a re-analysis of the deposited data

How the results depend on the processing

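The calls of egln3 and bnip3 held in all 14 alternatives run, those of epas1a, epas1b and egln2 appeared in 2, 2 and 1, and hif1aa, hif1ab, egln1a, egln1b and vhl were called in none. With single pools left out, the count of called genes ran from 1878 (without control pool 1) to 4059 (without control pool 2), that of the 10 members from 2 to 4 and that of the 138 pathway genes from 20 to 46. Without control pool 2 and leachate pool 1 together, 4 members and 62 pathway genes were called, and 5254 of all genes tested.

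Some log2 fold changes that were not called changed sign. For hif1aa the value was 0.0606 with library totals and 0.0683 in TPM, and ran from -0.229 to 0.0892 with 1 pool left out (0.0080 without control 3, 0.0892 without leachate 2). For hif1ab it was 0.0928 with library totals and 0.128 in TPM, and ran from -0.171 to 0.103 (0.103 without control 2, 0.0280 without leachate 2, 0.0217 without leachate 3). For epas1b it ran from -0.00489 without control 3 to 0.336 without control 2, and for egln1a from -0.0383 without leachate 1 to 0.135 without leachate 3 (-0.0279 without control 3, -0.00045 without leachate 2). The difference in the hif1aa to hif1ab ratio ran from -0.26 to 0.11 with 1 pool left out (0.107 without control 3, 0.0298 without leachate 1, 0.0666 without leachate 2). The shift of all genes with library totals and TPM is given in the text; other causes were not tested.

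Same-numbered pools did not deviate together (correlations of -0.0775, -0.157 and 0.0371). With 3 pools per group these correlations cannot decide whether the numbers pair the pools. With the replicate block, 2565 genes, 2 members and 31 pathway genes were called. Depth limits egln1a and egln3 most, with counts from 49.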

Other observations

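Over the 6 pools, the genes whose log2 CPM followed egln3 most closely, among 14997 with a gene name and a mean of at least 2 CPM, were plpp6, abcb8, pik3cb, rybpa and tert, with Pearson's r of 0.997 to 0.994. Those closest to epas1a were ccdc57, tmtc4, nemp1, bmp2k and ift88, with r of 0.998 to 0.986. The 6 pools share the contrast of control and leachate, so any gene that differs between the groups tends toward a high r, and no p is given. Of these 10 genes, rybpa and tert were called, at log2 fold changes of 0.54 and 0.68 with edgeR adjusted p of 0.0203 and 0.0402.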
